A study of Glycine max with 16 samples.

Results

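The 108 genes described here were almost unmeasured in watered soybean leaves and were present in every line after the leaves had dried in air. They were chosen on their measured values out of 56044 genes in the deposited table. A gene was taken when it stood below 0.2 RPKM (a read level that takes gene length and library size into account) in all 4 watered columns and at 5 RPKM or more in all 4 dehydrated columns. It also had to stand below 31 RPKM in at least 1 dehydrated column, which leaves out 13 genes with the same pattern at higher levels. The rise with drying is therefore how the genes were picked. It is given as a description, without a test.

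Leaf RNA of soybean (Glycine max) was sequenced in 3 transgenic lines over-expressing GmWRKY54 (A004A, A005B and B010C) and in the null line, whose columns carry the line name B001A. GmWRKY54 belongs to the WRKY family of plant transcription factors, and the sources used here do not name the promoter that drives the transgene. Seedlings were 2 weeks old, and trifoliate leaves came either from plants kept watered or from plants left to dry in air for 6 h. The labels list 16 samples, 2 for each of 8 groups, and the deposited table holds 1 column for each group. The groups used below are thus watered and dehydrated null, A004A, A005B and B010C, each as a single value per gene, and each transgenic line is 1 line with no repeat of its own. The labels do not say that watered plants were harvested after the same 6 h, so drying and the passage of time cannot be told apart.

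Plants that lose water raise abscisic acid, a hormone that closes stomata and, through bZIP transcription factors, turns on genes with protective roles. Other responses to water loss run through dehydration-responsive element-binding factors without the hormone. Late embryogenesis abundant proteins are a well known group whose genes are mostly quiet in watered leaves and are expressed in drying seeds and in stressed tissue. The deposited table gives gene identifiers without names, and the gene table used here matched 0 of its 56044 identifiers. The genes are therefore given by identifier, no role is attached to any of them, and no sequence is printed. Leaf identity could likewise not be checked against leaf, seed, nodule or pollen markers.

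Summed over genes, RPKM came to between 636011 in dehydrated A004A and 818267 in dehydrated B010C. How many reads lie behind a value is unknown. Genes reaching 1 RPKM in 2 or more columns, 34400 in number, are called the tested genes below. Their median was 5.79 RPKM in dehydrated null, 4.64 in A004A, 5.30 in A005B and 5.09 in B010C. All 108 genes entered this tested set, and by the rule they could do so only through their dehydrated columns. Many soybean genes have a near-identical copy, and the sources used here do not say how reads matching more than 1 copy were assigned. Levels of genes with such a copy are uncertain to that extent.

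Before drying the genes stood at or near 0. Of the 432 watered values of the 108 genes, 110 were listed at 0, 77 were 0.1 RPKM or more, and the median was 0.0400 RPKM. The 7 genes listed at 0 in all 4 watered columns were Glyma.03G160400, Glyma.06G077000, Glyma.09G250000, Glyma.13G275000, Glyma.17G005400, Glyma.17G115900 and Glyma.19G162200. A further 9 were listed at 0 in 3 watered columns, 14 in 2, 27 in 1 and 51 in none. A listed 0 can be a failed estimate, so silent here means below 0.2 RPKM and not shown to be off.

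The watered columns differed slightly in this residue. The watered values of the 108 genes summed to 7.08 RPKM in null, 6.51 in A004A, 5.21 in A005B and 3.95 in B010C, and their medians were 0.0562, 0.0499, 0.0350 and 0.0207 RPKM in the same order. Genes listed at 0 numbered 23 in null (21.3%), 21 in A004A (19.4%), 28 in A005B (25.9%) and 38 in B010C (35.2%), where 22.7%, 21.3%, 22.3% and 23.1% of all genes were. In watered B010C the residue was thus lowest and the zeros most frequent. Which column is null and which A005B is in some doubt, either in the watered or in the dehydrated leaves. In 39 genes, none of them among the 108, null and A004A were at least 2-fold above the other lines when watered and A004A and A005B when dehydrated, against 2 genes with A004A and A005B higher in both treatments. The choice of the 108 genes does not rest on which of these columns is which, but the watered values given by line do. If the dehydrated columns are the exchanged ones, all comparisons with dried null rest on it as well. Which treatment the doubt belongs to was not tested.

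After drying the same genes had medians of 10.4 RPKM in null, 14.8 in A004A, 14.2 in A005B and 17.1 in B010C. Their share of all RPKM went from between 0.000551% and 0.000989% in the watered columns to 0.189% in dehydrated null, 0.315% in A004A, 0.280% in A005B and 0.301% in B010C. The medians lie above those of the tested genes, and 56 of the 108 genes reached 10 RPKM in dehydrated null and 85, 87 and 82 in A004A, A005B and B010C. Only 6, 14, 12 and 26 reached 31 RPKM in the same 4 columns. Over the 4 dehydrated columns the mean of a gene lay between 5.90 and 62.4 RPKM, with a median of 14.4. In bulk leaf tissue more RNA per cell and more cells of a type expressing a gene cannot be told apart.

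**Figure D1:**
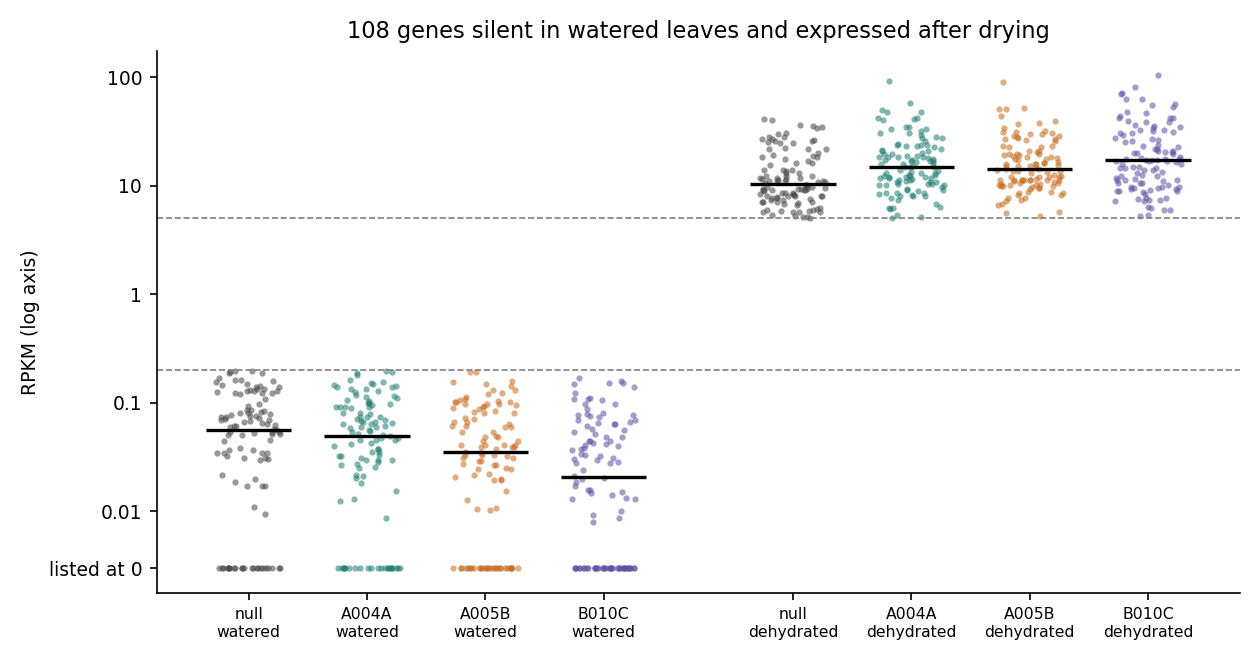
RPKM of the 108 genes in each of the 8 columns on a log axis, where each point is a gene, bars are medians, dashed lines mark the limits of 0.2 and 5 RPKM, and genes listed at 0 are drawn at the bottom. Watered medians lie between 0.0207 and 0.0562 RPKM and dehydrated medians between 10.4 and 17.1 RPKM, lowest in null.

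The step from residue to expression was wide. For the 101 genes with any watered value above 0, the lowest dehydrated value was 29.6 to 726 times the highest watered value, with a median of 107 times. The widest step was that of Glyma.11G054700, which stood at 0.0370 RPKM in watered null, 0.0368 in B010C and a listed 0 in A004A and A005B, and at 35.2, 33.0, 26.9 and 38.9 RPKM in dehydrated null, A004A, A005B and B010C. The narrowest step, in Glyma.16G038000, ran from at most 0.192 RPKM watered to at least 5.69 RPKM dehydrated. On the log2(RPKM + 1) scale, which understates change from low values, the mean change over the 4 lines was 2.65 to 5.72, with a median of 3.81, where the median of all tested genes was -0.18. These medians became 3.92 and 0.015 with median-of-ratios scaling. In limma all 108 genes were called higher at an adjusted p under 0.05, as were 28.7% of tested genes, and since the rule used this contrast nothing is read from that count.

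The gene with the highest mean after drying was Glyma.10G064400. It stood at 0.0863, 0.0557, 0.0323 and 0.0327 RPKM in watered null, A004A, A005B and B010C, and at 24.9, 92.4, 90.4 and 41.7 RPKM in the same lines after drying. A004A and A005B were the high lines, and null was the lowest. Glyma.07G168600 stood between 0.138 and 0.197 RPKM watered and at 29.6, 57.3, 51.6 and 81.1 RPKM dehydrated, with B010C highest and null again lowest. Glyma.18G294300 showed the same order of extremes, with at most 0.0482 RPKM watered and 28.02, 47.3, 36.9 and 69.9 RPKM dehydrated.

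A different order was seen in Glyma.05G124900, which reached the highest single value of the 108 genes. Its watered values were at most 0.0954 RPKM, and its dehydrated values were 36.2 RPKM in null, 18.9 in A004A, 29.6 in A005B and 104 in B010C. Here null lay inside the range of the transgenic lines and B010C alone stood apart. The next 4 genes by mean level varied less, apart from the last. Glyma.17G055600 stood at 28.3 to 43.6 RPKM after drying, Glyma.17G017400 at 23.7 to 46.2, and Glyma.14G145800 at 28.9 to 41.4. Glyma.10G205900 stood at 49.4 RPKM in A004A and 51.2 in A005B against 19.8 in null and 17.4 in B010C, so that the lines fell into 2 pairs.

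The limits of the rule cut through a continuous range of values. At the watered limit of 0.2 RPKM, Glyma.07G168600 reached 0.197 RPKM and was taken, while Glyma.14G171700 reached 0.201 RPKM with dehydrated values of 5.84 to 9.41 RPKM and was not. At the dehydrated limit of 5 RPKM, Glyma.11G017400 had a lowest value of 5.02 RPKM, whereas Glyma.19G164600 had 4.998 RPKM in A004A and fell outside with 5.76 to 13.6 RPKM in the other lines. At the upper limit, the lowest dehydrated value of Glyma.07G168600 was 29.6 RPKM and that of Glyma.13G111100, left out, was 31.6 RPKM. A lowest dehydrated value under 6 RPKM was found in 17 of the 108 genes, and one of 20 RPKM or more in 13. The 13 genes above the upper limit ranged from 31.6 to 336 RPKM after drying, the highest value being that of Glyma.08G211000 in B010C.

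Few of the genes that were silent in watered leaves were expressed after drying. Of 15918 genes below 0.2 RPKM in all watered columns, 13095 (82.3%) were also below 0.2 RPKM in all dehydrated columns. At 5 RPKM or more were 121 silent genes in all 4 dehydrated columns, 38 in 3, 51 in 2 and 80 in 1, and 15628 in none. The 108 genes are 0.678% of the silent genes. The 80 silent genes that reached 5 RPKM in a single dried line did so in B010C in 45 (56.3%), A004A in 18 (22.5%), A005B in 14 (17.5%) and null in 3 (3.75%). Of the 1785 genes that reached it in a single dried line without having been silent, B010C had 14.4%, A004A 10.7%, A005B 16.97% and null 57.9%. In most of the 80 silent genes at least 1 other dried line reached 1 RPKM. The other lines were all under 1 RPKM in only 10, 5, 3 and 0 of the silent genes of B010C, A004A, A005B and null. Of the 38 silent genes at 5 RPKM or more in all dried lines but one, the line below it was null in 29 (76.3%), A004A in 6, A005B in 2 and B010C in 1, and null was the line below it in 13.2% of the 1541 such genes that had not been silent.

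The opposite pattern was rarer. Below 0.2 RPKM in all 4 dehydrated columns were 15449 genes, and of these 12 stood at 5 RPKM or more in all 4 watered columns, 11 of them also below 31 RPKM in at least 1. Glyma.19G144500, the highest of the 12, stood at 111, 100.2, 73.6 and 77.7 RPKM in watered null, A004A, A005B and B010C and was listed at 0 in all dehydrated columns. Glyma.17G012300 stood at 7.78, 25.5, 13.1 and 6.80 RPKM watered and between 0.0654 and 0.195 RPKM dehydrated.

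**Figure D2:**
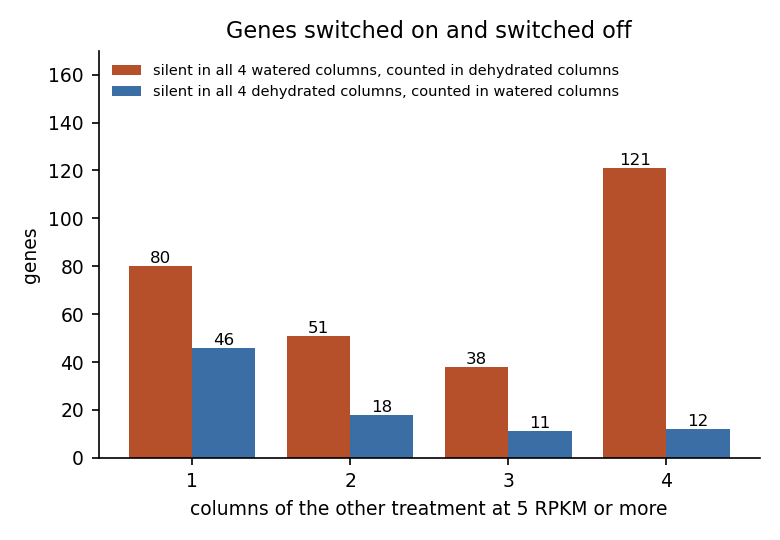
Numbers of genes, from those below 0.2 RPKM in all columns of a treatment, that stood at 5 RPKM or more in 1, 2, 3 or 4 columns of the other treatment. In all 4 columns there were 121 genes that were silent in watered leaves and 12 that were silent in dehydrated leaves.

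Each line was next left out of the choice in turn and read as a line that the choice had not used. In B010C, 112 genes were chosen from the other 3 lines, and 108 of them (96.4%) were also below 0.2 RPKM watered and at 5 RPKM or more dehydrated. In A005B the count was 106 of 117 (90.6%), and in A004A 107 of 131 (81.7%). In null it was 101 of 143 (70.6%). Over all genes of the table the same 2 conditions were met by 0.798% in B010C, 0.660% in A005B, 0.532% in A004A and 0.430% in null. Most chosen genes thus met both conditions in each line left out, least often in null. The order of the lines was the same over all genes. The limits are those of the rule and most of the chosen genes are the 108 themselves. Nothing is therefore read from the excess over all genes. With the watered null and A005B columns exchanged the counts were 101 of 140 (72.1%) in null and 106 of 120 (88.3%) in A005B.

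The shortfall in null lay mainly in the dried level. In dehydrated null 111 of 143 chosen genes (77.6%) reached 5 RPKM, while 130 of 143 were below 0.2 RPKM watered. Their median after drying was 8.60 RPKM in null, whereas the genes chosen without A004A, A005B or B010C had medians of 14.9, 13.5 and 16.8 RPKM in the line left out. Nearly all still rose, since 142 of 143 were at least 2-fold higher after drying in null. The line left out differed from the mean of the other 3 on the log2 scale, at the median, by -0.58 in null, 0.02 in A004A, -0.01 in A005B and 0.26 in B010C, against 0.16, -0.16, 0.03 and -0.03 over all tested genes. Glyma.09G168200, chosen after its values were seen, shows such a gene. It was at most 0.0790 RPKM in every watered column, and after drying it stood at 2.21 RPKM in null, 32.1 in A004A, 16.8 in A005B and 8.51 in B010C.

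How far the dried lines differed varied from gene to gene. The highest dehydrated value was 1.09 to 8.30 times the lowest, with a median of 2.00. It was under 2 times in 54 genes (50%), 2 to under 4 times in 46 and 4 times or more in 8 (7.41%). As a reference, 1743 genes met the same dehydrated limits, were not silent when watered, and were at least 2-fold higher after drying in all 4 lines. Of these raised genes 76.1% stayed under 2 times and 3.27% reached 4 times, with a median of 1.57. The switched-on genes thus spread more between lines than these raised genes, a difference given without a test. The raised genes were not matched to them in level or in size of rise. To count as not silent, they needed only 1 watered column at 0.2 RPKM or more.

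At the even end, Glyma.13G312700 stood at 5.87, 6.13, 5.64 and 5.96 RPKM in dehydrated null, A004A, A005B and B010C, the smallest spread of all. Glyma.02G147900 followed at 21.98, 20.7, 18.5 and 20.99 RPKM, and Glyma.09G060800 at 16.1, 13.1, 13.7 and 14.5 RPKM. In these 3 genes the lines were nearly level.

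At the uneven end stood Glyma.17G005400, which was listed at 0 in all watered columns. After drying it reached 15.5 RPKM in null, 5.05 in A004A, 5.23 in A005B and 41.9 in B010C, an 8.30-fold range. Glyma.10G008600 had the same order of lines at 25.4, 10.8, 16.6 and 71.5 RPKM (6.61-fold), as did Glyma.05G124900 above (5.49-fold). In all 3 of these genes B010C was highest and A004A lowest. In contrast, Glyma.14G100000 stood at 9.05, 42.2, 20.4 and 62.9 RPKM (6.95-fold) and Glyma.08G171300 at 11.01, 27.4, 30.4 and 62.8 RPKM (5.71-fold). In both of these null was lowest and B010C highest.

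Between pairs of dried lines, A004A and A005B were the closest over the 108 genes, with a median absolute log2 difference of 0.22. At least 2-fold apart between them were 2 genes (1.85%), near the 1.65% of tested genes. The other transgenic pairs stood further apart, at 0.47 for A004A and B010C and 0.51 for A005B and B010C. In these pairs 15 (13.9%) and 23 genes (21.3%) were at least 2-fold apart, against 6.53% and 5.44% of tested genes. Null differed from A004A by 0.57, from A005B by 0.59 and from B010C by 0.66. Here 24 (22.2%), 22 (20.4%) and 27 genes (25%) were at least 2-fold apart, against 10.9%, 6.11% and 2.95% of tested genes. Of the 1743 raised genes, 11.5%, 7.63% and 6.31% were so in these pairs with null. In the pairs of B010C with A004A and A005B, 9.18% and 8.84% of the raised genes were. Over all tested genes the 6 medians lay between 0.22 and 0.39, also with A004A and A005B closest.

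**Figure D3:**
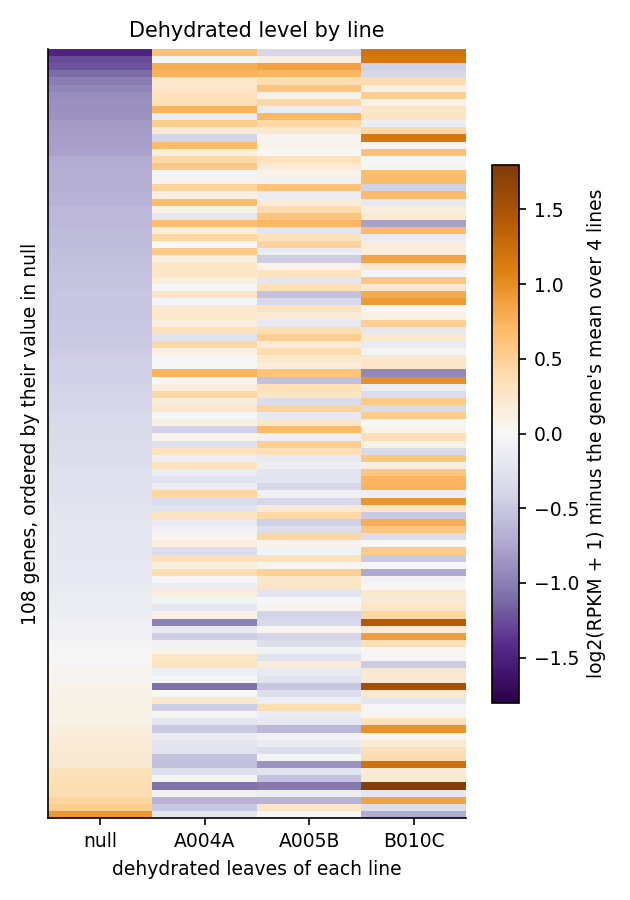
Dehydrated level of each of the 108 genes as log2(RPKM + 1) minus the mean of the gene over the 4 lines, with a row for each gene, ordered by null from low to high, and a column for each line. Null is the lowest column in 61 rows and B010C the highest in 50, and A004A and A005B resemble each other most.

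Whether over-expression of GmWRKY54 went with another level of these genes was asked in the dehydrated leaves alone. The rule did not compare the lines, but it set limits on these same dehydrated values, null included. Its lower limit left out 29 silent genes that fell short in null alone, and 6, 2 and 1 in A004A, A005B and B010C alone. All differences from null given below, limma included, are those of genes kept by these limits. How far the limits shape them was not tested. With values as deposited, most of the 108 genes were higher in each dried transgenic line than in dried null, whereas most tested genes were not. Most of the 1743 raised genes were higher as well, in smaller shares. The lines A004A, A005B and B010C differed from null by median log2 values of 0.43, 0.40 and 0.58 over the 108 genes, against -0.24, -0.10 and -0.14 over tested genes. Each comparison sets 1 column against 1 column, all 3 use the same null column, and none has a replicate check. The doubt given above over the null and A005B columns holds here too, and an exchange of the dehydrated columns was not run.

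In A004A, 79 of the 108 genes (73.1%) were above null, where 30.8% of tested genes were. At least 2-fold higher in A004A were 19 genes (17.6%), against 2.76% of tested genes, and at least 2-fold lower were 5 (4.63%), against 8.10%. In A005B, 75 genes (69.4%) were above null against 39.0% of tested genes, 19 (17.6%) were at least 2-fold higher against 2.85%, and 3 (2.78%) at least 2-fold lower against 3.26%. In B010C, 90 genes (83.3%) were above null against 32.7%, 26 (24.1%) were at least 2-fold higher against 1.97%, and 1 (0.926%) was at least 2-fold lower against 0.985%. These counts depend on the scaling. In A004A, 30 of the 108 passed the 2-fold mark upward and 1 downward with median-of-ratios factors, and 29 and 1 with quantile normalization. In B010C, 37 passed it upward with median-of-ratios factors and 26 with quantile normalization. In A005B, 1 was lower with quantile normalization. The shares of tested genes under these scalings are not given, so nothing is read from the scaled counts alone. For the 1743 raised genes the medians were closer to 0, at 0.06, 0.08 and 0.15 in A004A, A005B and B010C, and 6.66%, 4.93% and 6.02% of them were at least 2-fold higher. Above null were 54.4%, 56.6% and 66.7% of the raised genes in the same lines. A majority above null was thus not found in the 108 genes alone.

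**Figure D4:**
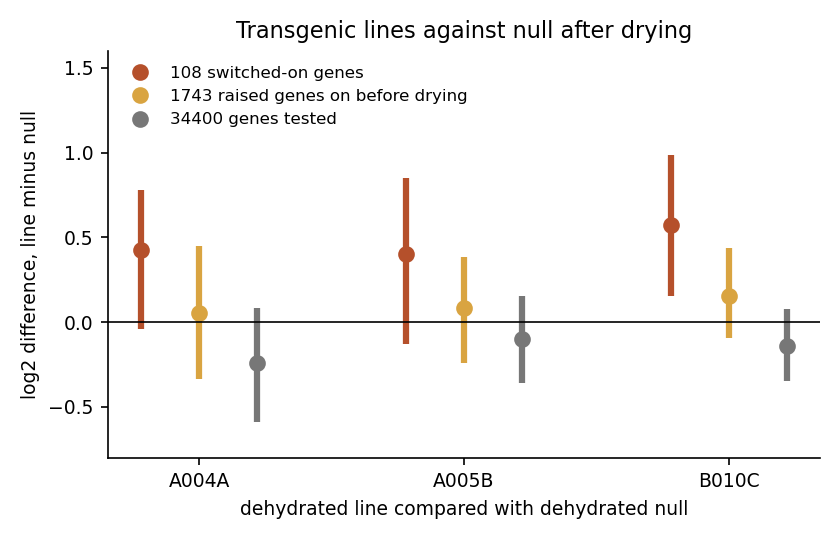
Log2 difference of each dehydrated transgenic line from dehydrated null, as the median (points) and the lower to upper quartile (bars) over the 108 genes, over 1743 genes raised by drying that were not silent when watered, and over all 34400 tested genes. The medians of the 108 genes are 0.43, 0.40 and 0.58, and those of all tested genes lie below 0.

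Dried null was the lowest of the 4 lines in 61 of the 108 genes (56.5%), against 15.3% of tested genes. It was the highest in 7 (6.48%), against 45.4% of tested genes. Among the transgenic lines, A004A was lowest in 17 genes (15.7%) and highest in 23 (21.3%), against 45.99% and 13.2% of tested genes. A005B was lowest in 19 (17.6%) and highest in 28 (25.9%), against 12.3% and 23.3%. B010C was lowest in 11 (10.2%) and highest in 50 (46.3%), against 25.3% and 17.97%. The 1743 raised genes lay between the 108 genes and tested genes in these shares. Null was lowest in 39.1% of them and highest in 19.5%, and B010C was lowest in 14.5% and highest in 36.3%. Scaling the columns by median-of-ratios factors put null lowest in 71 genes against 25.99% of tested genes, and quantile normalization in 72 against 24.98%.

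The limma test of the 3 transgenic lines against null in the 4 dehydrated columns called none of the 108 genes at an adjusted p under 0.05 (0 genes). It called 0.00581% of tested genes, namely 2 genes, each lower in the transgenic plants. The fit has 2 residual degrees of freedom, compares 1 null line with 3 lines, and assumes that null varies as they do. The lack of calls does not show that the lines were alike. Standard errors of the 108 genes ran from 0.21 to 1.21 on the log2 scale with a median of 0.34, and the smallest adjusted p was 0.586. A difference of the mean of the 3 lines from null of 1 or more was found in 15 genes and of -1 or less in 1, and 85 of the 108 differences were positive. The shares of tested genes for these counts are not given, so nothing is read from them alone. The median difference was 0.46, against -0.16 over tested genes. Median-of-ratios scaling moved the median of all tested genes from -0.16 to -0.02 and that of the 108 genes to 0.64.

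At an unadjusted p under 0.05, 25 of the 108 genes were higher in the transgenic lines, against 2.01% of tested genes, and 1 of the 108 was lower, against 6.31%. Without A005B the 25 became 9, without A004A 20 and without B010C 35, against 1.31%, 1.37% and 5.77% of tested genes in the same fits. The smallest p was that of Glyma.12G235800, at 14.03 RPKM in dried null and 34.6, 37.9 and 38.8 RPKM in A004A, A005B and B010C. The 3 transgenic lines lay close together and apart from null, with a log2 difference of 1.34 ± 0.21 SE (limma, adjusted p = 0.586). Glyma.20G116700 stood at 10.5 RPKM in null and 21.7, 22.7 and 25.99 RPKM in the transgenic lines, a log2 difference of 1.09 ± 0.22 SE (limma, adjusted p = 0.586).

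Glyma.16G038000 stood at 5.69 RPKM in dried null and 14.8, 15.6 and 12.2 RPKM in A004A, A005B and B010C. Glyma.13G112400 stood at 9.20 RPKM in null and 22.8, 19.4 and 26.2 RPKM in the others. In both, null lay below all transgenic lines, with log2 differences of 1.17 ± 0.24 SE and 1.21 ± 0.25 SE in limma and an adjusted p of 0.586 for each. Glyma.11G097700, chosen after its values were seen, showed the same at 9.54 RPKM in null and 23.0, 29.9 and 20.7 RPKM.

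The 1 gene lower at an unadjusted p under 0.05 was Glyma.14G121400, at 21.6 RPKM in dried null and 9.16, 10.7 and 6.28 RPKM in A004A, A005B and B010C. Null lay above all 3 transgenic lines, with a log2 difference of -1.24 ± 0.33 SE (limma, adjusted p = 0.586). In watered leaves the same gene stood at 0.193 RPKM in null and 0.145, 0.102 and 0.0520 RPKM in the others. Glyma.03G113300, also chosen after its values were seen, went the other way. It stood at 11.02 RPKM in dried null, 47.8 in A004A, 50.7 in A005B and 20.3 in B010C, with a log2 difference of 1.65 ± 0.57 SE (limma, adjusted p = 0.586).

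The identifiers of soybean genes name the chromosome and number the genes along it, which gives a position that the rule did not use. The 108 genes were found on all 20 chromosomes, from 2 genes on chromosomes 4 and 19 to 12 of 3730 genes on chromosome 13 and 10 of 2627 on chromosome 17. None of the 455 genes with an identifier outside the chromosomes was among them. Only 2 pairs lay within 10 steps of each other in the numbering. Glyma.07G178100 and Glyma.07G178200 are consecutive, at 8.27 to 10.9 and 7.34 to 12.3 RPKM after drying. Glyma.09G142200 and Glyma.09G142500 lie 3 steps apart, at 10.2 to 23.4 and 10.4 to 19.98 RPKM.

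The genes numbered next to them were raised by drying more often than tested genes at large. Of 214 neighbours 1 step away that were not themselves among the 108, 141 were tested, and 45 of these (31.9%) were at least 2-fold higher after drying in all 4 lines, against 11.1% of tested genes. At least 2-fold lower in all 4 lines were 20 (14.2%), against 13.6% of tested genes. The share of raised genes fell to 14.8% at 2 steps, 11.2% at 3, 8.80% at 5, 12.8% at 10 and 11.6% at 20 steps. Restricted to genes with a watered mean of 1 RPKM or more, 29 of 114 neighbours (25.4%) were raised, against 8.49% of all genes passing that filter. These are shares of genes in the same columns, given without a test.

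Next to any gene raised at least 2-fold in all lines, 20.1% of neighbours were raised, and 12.99% at 2 steps. An excess beside a responsive gene was thus not found beside the switched-on genes alone, and its larger size there was not tested. Of the 214 neighbours, 65 (30.4%) were below 0.2 RPKM in all watered columns, against 28.4% of all genes. Strand, distance and overlap of neighbouring genes are unknown here, and without strand information reads from overlapping genes cannot be told apart. Whether reads of a strongly expressed neighbour reach into a switched-on gene was not tested.

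**Figure D5:**
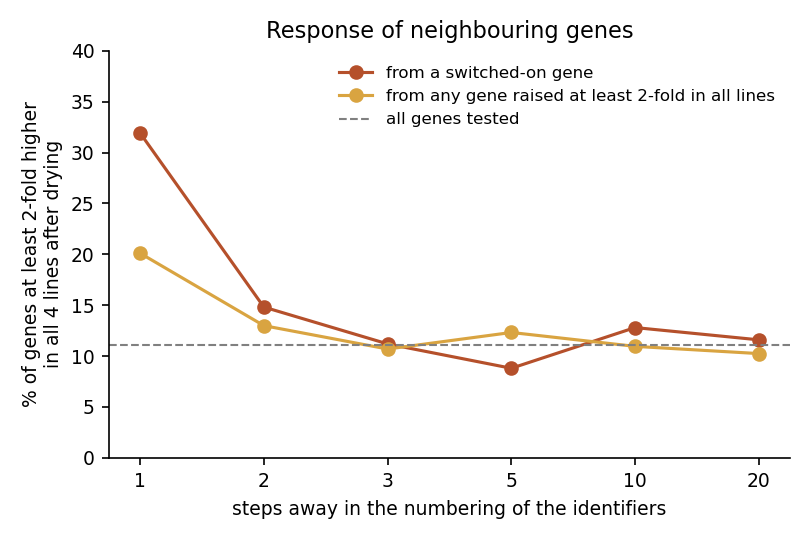
Percent of tested genes at least 2-fold higher after drying in all 4 lines, by their distance in identifier numbering from 1 of the 108 genes or from any raised gene; the dashed line is the share over all tested genes. The share is 31.9% at 1 step from a switched-on gene and 20.1% at 1 step from any raised gene, and both are near 11.1% from 3 steps on.

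The 45 raised neighbours stood beside 40 of the 108 genes, 25 numbered before and 20 after. In 31 of the 45 pairs the neighbour had the higher mean level after drying, and the ratio of neighbour to switched-on gene ran from 0.0788 to 133 with a median of 1.99. In 4 pairs, chosen after their values were seen, the neighbour was among the abundant transcripts. Glyma.03G238800 rose from 2.52, 2.20, 1.02 and 0.690 RPKM in watered null, A004A, A005B and B010C to a mean of 1637 RPKM beside Glyma.03G238700, which had a mean of 13.4 RPKM. Glyma.08G171400 had a mean of 1915 RPKM beside Glyma.08G171300 at 32.9 RPKM, Glyma.16G037900 one of 1601 RPKM beside Glyma.16G038000 at 12.1 RPKM, and Glyma.03G113200 one of 873 RPKM beside Glyma.03G113300 at 32.4 RPKM.

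Some pairs followed the same order of lines after drying and others did not. Glyma.14G099900, at 5.12 RPKM in dried null and 17.6, 12.996 and 30.6 RPKM in A004A, A005B and B010C, had the order of its neighbour Glyma.14G100000. Glyma.03G113200 stood at 838 RPKM in null, 780 in A004A, 1246 in A005B and 629 in B010C, where Glyma.03G113300 was lowest in null. Over the 45 pairs the lowest line was the same in 17 and the highest in 21. The raised neighbours were lowest in null in 12 of 45 genes (26.7%), against 37.8% of all 3826 raised genes and 56.5% of the switched-on genes themselves.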

How the data were processed

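RPKM values of 56044 genes were used as the authors deposited them, in 8 columns, 1 for each line and treatment. The labels list 16 samples, and the sources used here do not say whether or how the 2 samples of a group were combined. Per the submitters' processing notes TopHat was used, with no version named, and the sources used here give no counting program, build or annotation. Columns were tied to groups by their names, and 0 columns had no group. Whether a group's 2 samples are separate plants is not stated, and p-values measure only the spread between columns of different lines. Depth is unknown, so no interval or limit of detection is given, and no count model was used.

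The 34400 genes reaching 1 RPKM in 2 or more columns were tested as log2(RPKM + 1) with limma 3.58.1 in R 4.3.3, using empirical Bayes with a trend, two-sided tests, Benjamini-Hochberg adjustment over all tested genes and a threshold of 0.05. The 3 transgenic lines were compared with null in the 4 dehydrated columns (2 residual degrees of freedom), and drying over 8 columns with a term for line (3 residual degrees of freedom). Single columns were compared by fold alone. Pseudocount, filter, scaling and the lines included were varied.

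The genes, and the lists meant to describe them, were chosen with earlier results of these data known. Because the RefSeq gene table of assembly Glycine_max_v4.0 matched 0 identifiers, 26 gene lists by function and the tissue markers could not be built. Promoter motifs and protein relatives were not analysed here. The plan for naming genes took the 8 highest mean dehydrated levels, the 5 largest and 3 smallest ranges between dried lines, the 4 smallest p where none passed, and the genes nearest each limit. It kept to 2 identifiers if no table gave names. More are named here so that values can be shown. Those beyond the first 2 count as chosen after their values were seen, as do all neighbouring genes.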

Additional observations from a re-analysis of the deposited data

How the results depend on the processing

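The number of genes that met the rule depended on its limits. It was 57 with a watered limit of 0.1 RPKM, 224 with 0.5 RPKM and 7 with a listed 0 in every watered column, and 219 and 49 with dehydrated limits of 2 and 10 RPKM. It was 119 after median-of-ratios scaling, of which 106 were among the 108 genes, 121 after quantile normalization, with 104 of the 108, and 112 to 143 with a line left out. For the transgenic lines against null in dehydrated leaves, limma called 0 of the 108 genes under every alternative run, and over all genes 2 as reported, 384 with no filter, 0 with a pseudocount of 0.1, 0 after quantile normalization, and 0 to 45 with a line left out. The 25 genes higher at an unadjusted p under 0.05 became 15 with no filter, against 1.84% of all genes in that fit. With a line left out they became 9 to 35, against 1.31% to 5.77% of tested genes. A fit of all 8 columns gave 43, against 3.39%. That fit shares its spread with the watered columns, where the 108 genes are silent by the rule. Its spread for them is therefore too small, and nothing is read from the 43. The median log2 difference over all 108 genes, 0.46, was 0.64 with median-of-ratios scaling and 0.60 with quantile normalization. Genes at least 2-fold higher in A004A numbered 30 and 29 under those scalings and those lower 1 and 1, and in A005B those lower numbered 1 after quantile normalization. In B010C those higher numbered 37 and 26 under those scalings and 31 with a pseudocount of 0.1. With a mean of at least 5 RPKM, 7275 genes in place of 13764 were called lower on drying. Raised neighbours numbered 29 under the watered filter. Exchanging the watered null and A005B columns left 101 and 106 genes meeting both conditions in null and A005B when left out, as reported. That exchange, the watered filter and the other settings of the neighbour and lowest-line counts were added after seeing the data. Of 169 alternatives over 19 single genes, 161 kept the direction of the difference from null. Glyma.05G124900 turned from 0.10 to -0.59 without B010C (range -0.59 to 0.61 with a line left out). Glyma.10G008600 turned from -0.10 to 0.079 and 0.046 under the scalings, 0.43 without A004A and 0.15 without A005B (range -0.87 to 0.43). Glyma.13G312700 turned from 0.0087 to -0.014 without A004A (range -0.014 to 0.037), and Glyma.02G147900 from -0.13 to 0.052 and 0.042 under the scalings. Without a filter 56044 genes were tested in place of 34400, and a left-out line takes a column from the fit. The cause of the changes was not tested. The fit without the null line cannot be made, and alternatives for motifs and relatives were not run. No paired analysis was possible because the columns carry no replicate number. In the drying fit, the term for line pairs the columns of each line.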
